A study of Mus musculus with 38 samples.

Results

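Skin of mice with induced vitiligo was set against skin of wild type mice that had been injected with a vehicle. The comparison holds 9 vitiligo and 3 vehicle libraries, which are 12 of the 38 libraries of the series. Libraries were assigned to a group by the treatment in their labels, with no measured value used. All libraries are bulk RNA of tail skin. The vitiligo group is labelled as having undergone vitiligo induction, and the vehicle group as wild type mice given a vehicle by intraperitoneal injection. A second control, 9 libraries of wild type mice without induction (no_induction), is used to show which differences appear against either control. None of these 3 groups is labelled as given ABX or hippuric acid. Strain, age, sex, the vehicle and the way vitiligo was induced are not named in the labels, and neither is whether each library came from its own mouse. The p-values therefore measure the spread between these libraries. The question was which changes seen with vitiligo induction also appear against injected control skin.

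In vitiligo, cytotoxic T cells destroy melanocytes, the cells that make pigment. Interferon gamma from these T cells makes keratinocytes release the chemokines Cxcl9 and Cxcl10, which attract further T cells, and raises MHC class I molecules, which show peptides to them. The genes that interferons switch on are read as an interferon response. Tail skin of the mouse also contains hair follicles, sebaceous glands and a fat layer, so bulk RNA mixes signals from all of these. In such data, fewer cells of a type and less RNA per cell cannot be told apart.

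Libraries held 15.3 to 27.9 M counts in vitiligo, 15.9 to 22.2 M in vehicle and 16.9 to 26.0 M in no_induction. The labelled tissue carried its markers throughout: the basal keratin Krt5 lay between 2008 and 4412 CPM (counts scaled to a common library total) and the fibroblast collagen Col1a1 between 776 and 4426 CPM in the 21 libraries of the 3 groups. Vehicle 001 and no_induction 011 and 012 held Y-linked transcripts (164, 217 and 187 CPM summed over 4 genes), while no other library of the 3 groups exceeded 0.303 CPM. Vehicle 001 also stood apart on the first principal component (35.6% of variance), at 21.35 against -7.14 and -17.03 for vehicle 002 and 003. On the second component (13.5%) vitiligo 001 lay at -33.38 and every other vitiligo library between -12.18 and 12.37. Where a count or median of a gene list against vehicle is given, it is also given without vehicle 001 if that moved it by over 1.5 times. Vitiligo and vehicle were not balanced for the Y-linked transcripts, and the part of that difference in the results was not tested.

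No gene passed the threshold between vitiligo and vehicle. In edgeR's quasi-likelihood test 0 of 14197 genes (0.0%) had a Benjamini-Hochberg adjusted p under 0.05, and the smallest adjusted p was 0.489. Before adjustment 895 genes (6.3%) lay under 0.05, of which 512 (3.61%) were higher and 383 (2.7%) lower in vitiligo. DESeq2 called 15 genes (0.106%) and limma-voom none, with 2643 under 0.05 before adjustment. Without vehicle 001 edgeR again called 0 genes, with 2203 of 14368 (15.3%) under 0.05 before adjustment.

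Against no_induction the same vitiligo libraries gave 1070 called genes of 13826 (7.74%), of which 728 (5.27%) rose and 342 (2.47%) fell. Of these 1070 genes, 0 were called in the same direction against vehicle by edgeR, and 15 were called there by DESeq2. Of the 1069 that could be tested against vehicle, 410 (38.4%) had an unadjusted p under 0.05 in the same direction. In the opposite direction 0 did. The 410 held 298 of 728 genes that rose and 112 of 341 that fell. Over all genes 6.3% lay under 0.05, 3.61% higher and 2.7% lower. The unadjusted count became 542 of 1069 without vehicle 001, where the share of all genes under 0.05 was 15.3%. The genes that rose had a median log2 fold change of 0.74 against no_induction and 0.46 against vehicle, and those that fell -0.37 and -0.30. Both comparisons share the 9 vitiligo libraries, so these values are not independent. The median standard error (SE) of the 1069 genes was 0.207 against 3 vehicle libraries and 0.14 against 9 no_induction libraries. Every vitiligo library lay above every vehicle library for 57 of these genes and below for 16, while over all genes tested the groups did not overlap for 87 (0.613%) higher and 50 (0.352%) lower genes.

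The controls themselves were set against each other as the test of the difference between the comparisons, since the vitiligo libraries do not enter it. Between vehicle and no_induction edgeR called 0 of 14175 genes (0.0%), with a smallest adjusted p of 0.25. Before adjustment 509 genes (3.59%) lay under 0.05, 314 (2.22%) higher and 195 (1.38%) lower in vehicle. Limma-voom called 3 (Per1, Lep and Nnat). DESeq2 called 7 (0.0494%): Per1, Nnat, Cish, Mmd, Plin4 and Adcyap1r1, which were higher in vehicle, and Tyrp1, which was lower.

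**Figure D1:**
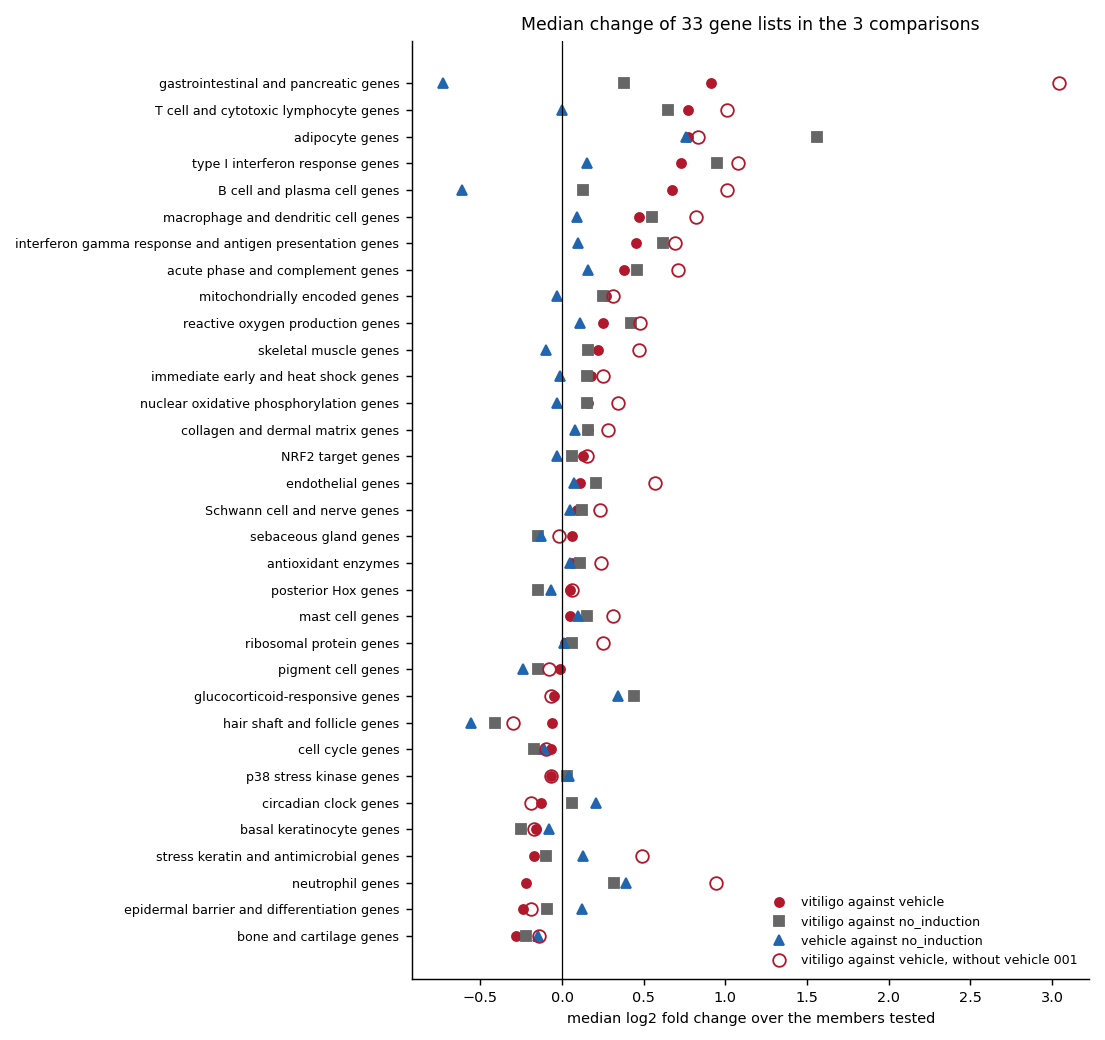
Median log2 fold change of the members of 33 gene lists (rows) in vitiligo against vehicle (filled circles), vitiligo against no_induction (squares), vehicle against no_induction (triangles) and vitiligo against vehicle without vehicle 001 (open circles). Interferon lists have their triangles near 0, the adipocyte list has a triangle at 0.76 beside a square at 1.56, and the open circles of the neutrophil and stress keratin lists lie on the other side of 0 from the filled ones.

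Interferon lists had medians near 0 between the controls, and vitiligo was higher than either, by a smaller median against vehicle than against no_induction. For 37 type I interferon response genes the median log2 fold change was 0.73 against vehicle, 0.95 against no_induction and 0.15 between the controls, where the median over all genes tested was 0.01, 0.01 and 0.00. Against vehicle 11 of the 37 lay under an unadjusted p of 0.05, all higher (3.61% of all genes were higher), and none passed the adjusted threshold. Against no_induction 22 were called higher, where 5.27% of all genes were. Before adjustment 34 of the 37 lay under 0.05 there, all higher, where 3658 of all 13826 genes lay under 0.05 in either direction. The mean level of the list, as log2(CPM + 1), ran from 2.73 to 4.39 in vitiligo (median 3.36) and was 3.09, 2.79 and 2.58 in vehicle 001, 002 and 003. The groups overlapped through vehicle 001 and through the lowest vitiligo libraries.

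Isg15 is a ubiquitin-like protein attached to other proteins during the interferon response. Its CPM was 1.86, 1.34 and 0.781 in vehicle and ran from 2.42 to 10.5 in vitiligo (median 3.56), so that all 9 vitiligo libraries lay above all 3 vehicle libraries. The log2 fold change was 1.72 ± 0.50 (SE, 95% interval 0.64 to 2.79) against vehicle and 1.3 against no_induction, where edgeR gave an adjusted p of 0.00535. Between the controls Isg15 had a value of -0.44 (95% interval -1.05 to 0.17), or -0.77 without vehicle 001. Ifi27, an interferon-induced membrane protein, was at 44.0, 35.9 and 41.0 CPM in vehicle and 48.6 to 92.0 CPM in vitiligo (median 62.5), again without overlap. Ifi44 was at 0.465, 0.640 and 0.240 CPM in vehicle and 0.647 to 3.47 CPM in vitiligo, with a log2 fold change of 1.81 ± 0.57. These genes were named for a small p in this same comparison. Over the list, 3 of 37 genes were higher without overlap, where 0.613% of all genes were. Ifit1 overlapped, at 1.38 to 2.93 CPM in vehicle and 1.41 to 17.6 CPM in vitiligo, a log2 fold change of 1.24 ± 0.64. Oas3, which makes the messenger that activates an antiviral RNA nuclease, overlapped: vehicle 001 held 1.12 CPM, above the lowest vitiligo library at 0.587 CPM. Its log2 fold change of 2.04 became 3.10 without vehicle 001, and its value of -0.07 between the controls became -1.11.

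Antigen presentation and interferon gamma response genes behaved alike. Of 37 tested, 19 had an unadjusted p under 0.05 against vehicle, all higher and none called, while 19 of 37 were called higher against no_induction (3.61% and 5.27% of all genes). Before adjustment 32 of 37 lay under 0.05 against no_induction, all higher. The medians were 0.45 and 0.62, and 0.10 between the controls. Without vehicle 001 the median against vehicle was 0.69, with 21 of 38 higher before adjustment, where 8.61% of all genes were higher. H2-K1, a classical MHC class I heavy chain, was at 280, 196 and 227 CPM in vehicle and at 237 to 608 CPM in vitiligo (median 438). In 8 of 9 vitiligo libraries H2-K1 exceeded every vehicle library, and the exception was vitiligo 001 at 237 CPM. The log2 fold change of H2-K1 was 0.85 ± 0.25 (95% interval 0.32 to 1.38) against vehicle and 0.88 against no_induction, and that between the controls was 0.02 (95% interval -0.26 to 0.29).

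B2m, the light chain that pairs with every class I heavy chain, was at 345, 258 and 235 CPM in vehicle and reached 796 CPM in vitiligo (median 524), where 7 of 9 libraries exceeded every vehicle library. The log2 fold change of B2m was 0.82 ± 0.30 against vehicle and 1.02 without vehicle 001. The nonclassical class I gene H2-Q7 was at 2.88, 2.11 and 2.70 CPM in vehicle and at 2.50 to 13.7 CPM in vitiligo, a log2 fold change of 1.53 ± 0.42. H2 genes are near-identical copies and reads may have been split between them, so the value of any single one is uncertain. Tap1, which carries peptides to class I, and the immunoproteasome subunit Psmb8 had log2 fold changes of 0.43 and 0.78 with unadjusted edgeR p of 0.0410 and 0.0221.

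The T cell chemokine Cxcl9 was at 0.558, 0.704 and 0.901 CPM in vehicle and at 0.619 to 11.9 CPM in vitiligo (median 3.45), and 8 of 9 vitiligo libraries lay above all vehicle libraries. Cxcl9 differed on the log2 scale by 2.45 ± 0.73 from vehicle and 2.55 from no_induction, and by 0.08 between the controls. Cxcl10 was at 0.651, 0.512 and 0.0601 CPM in vehicle and at 0.604 to 5 CPM in vitiligo, a log2 fold change of 2.19 ± 0.85. Against no_induction its log2 fold change was 1.5, and it was not called (edgeR p of 0.00813 before and 0.073 after adjustment). Only 3 of 9 vitiligo libraries exceeded every no_induction library for Cxcl10, and its value between the controls was -0.71. Both chemokines were low and the intervals were wide, reaching from 0.38 to 4.01 for Cxcl10 against vehicle.

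**Figure D2:**
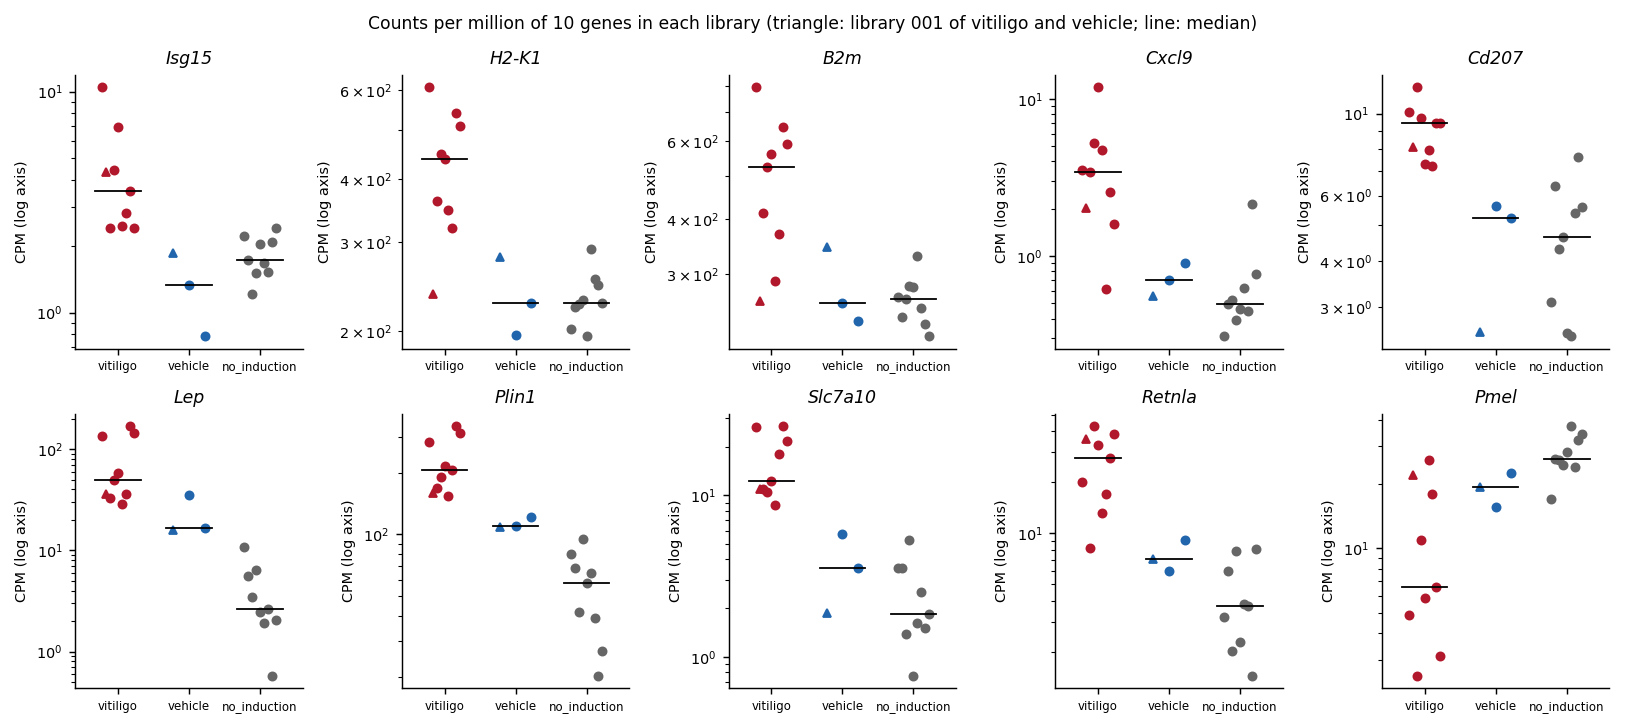
CPM on a log axis of 10 genes in each of the 9 vitiligo, 3 vehicle and 9 no_induction libraries, with library 001 of vitiligo and vehicle as a triangle and the group median as a line. Isg15, Cd207, Plin1 and Slc7a10 show no overlap of vitiligo with vehicle, H2-K1 and B2m overlap through library 001, and Pmel in vitiligo spans 2.54 to 25.9 CPM around the vehicle values.

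Promoters of interferon genes often carry an interferon-stimulated response element, and the windows below are shown for members of the interferon lists whose values are given above. Its core was searched as GAAANNGAAA on both strands, where overlapping matches are counted as 1 promoter, in 250 bases before and 50 after the RefSeq start (GRCm38.p6). The core was found in 15 of 31 type I interferon promoters that matched by symbol (48.4%), in 14 of 38 of the interferon gamma and antigen presentation list (36.8%) and in 1131 of 32851 promoters in all (3.44%). Windows ahead of the start are printed 5′ to 3′ on the strand of the gene, with matches in capitals, for Isg15 (chr4:156200855-156200916, minus strand), Cxcl10 (chr5:92349073-92349122, minus strand) and B2m (chr2:122147528-122147577, plus strand). A match describes these letters and shows no binding.
Isg15: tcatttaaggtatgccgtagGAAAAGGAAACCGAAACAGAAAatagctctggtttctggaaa
Cxcl10: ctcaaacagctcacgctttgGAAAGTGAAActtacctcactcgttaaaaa
B2m: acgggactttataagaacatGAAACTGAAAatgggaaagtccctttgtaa

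T cell genes were low in every library. Of 40 genes of the T cell and cytotoxic lymphocyte list in the table, 29 could be tested against vehicle, with a median log2 fold change of 0.77, and 11 had an unadjusted p under 0.05, all higher (3.61% of all genes were). The medians were 0.65 against no_induction, where 5 of 27 were called higher (5.27% of all genes were), and 0.00 between the controls. Cd3g, a chain of the T cell receptor complex, was at 2.14, 1.28 and 1.20 CPM in vehicle and at 1.86 to 4.91 CPM in vitiligo (median 3.56), a log2 fold change of 1.05 ± 0.35. In no_induction it ran from 0.899 to 4.69 CPM, and 1 vitiligo library lay above that range. Il2rb, the shared receptor chain for interleukins 2 and 15, was at 0.836, 0.576 and 1.26 CPM in vehicle and at 1.03 to 2.68 CPM in vitiligo. Cd8a, which marks cytotoxic T cells, was at 0.790, 0.0640 and 0.240 CPM in vehicle and at 0.307 to 1.94 CPM in vitiligo, a log2 fold change of 0.94 with a 95% interval of -0.51 to 2.39, or 2.24 without vehicle 001. Ifng itself was at 0 CPM in all vehicle libraries, reached 0.266 CPM at most in vitiligo and did not pass the count filter, so these depths could not show a difference in it.

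Macrophage and dendritic cell genes had a median log2 fold change of 0.47 against vehicle, with 5 of 30 higher at an unadjusted p under 0.05 (3.61% of all genes were). Without vehicle 001 the median was 0.82, with 8 higher and 1 lower, where 8.61% of all genes were higher. Cd207 (langerin), the lectin that defines Langerhans cells of the epidermis, was at 2.56, 5.63 and 5.23 CPM in vehicle and at 7.20 to 11.8 CPM in vitiligo (median 9.43). All 9 vitiligo libraries lay above all 3 vehicle libraries, and the log2 fold change was 1.02 ± 0.23 (95% interval 0.52 to 1.52), or 0.74 without vehicle 001. Between the controls the Cd207 value was -0.07. Itgax (CD11c), an integrin of dendritic cells, also showed no overlap, at 3.67, 4.93 and 4.45 CPM in vehicle against 5.04 to 12.7 CPM in vitiligo. Of the 30 genes of the list 3 were higher without overlap, where 0.613% of all genes were. The macrophage markers Cd68, Csf1r and C1qa overlapped. They were at 24 to 50.5, 107 to 164 and 52.5 to 118 CPM in vehicle, and at 11.9 to 95.2, 46 to 293 and 31.3 to 160 CPM in vitiligo.

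Itgad, an integrin of macrophages, was at 1.95, 4.03 and 1.68 CPM in vehicle and ran from 5 to 101 CPM in vitiligo (median 9.30). The log2 fold change was 3.23 ± 1.09 against vehicle and 4.29 against no_induction, where it was called with an edgeR adjusted p of 0.00034. Retnla, a secreted protein of alternatively activated macrophages and fat, was at 7.06, 6.02 and 9.19 CPM in vehicle and at 8.18 to 42.8 CPM in vitiligo (median 27.7), and only vitiligo 006 lay within the vehicle range. Levels of the whole macrophage list overlapped between the groups: vehicle 001 stood at 4.69 and vehicle 002 and 003 at 4.23 and 4.10, while vitiligo ran from 3.73 (library 001) to 5.40. C3, the central complement protein, was at 194, 134 and 177 CPM in vehicle and at 124 to 552 CPM in vitiligo, with vitiligo 001 the single library below the vehicle range.

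Fat cell genes followed another order, in which vehicle lay between the other groups. The level of the 28 adipocyte genes was 6.06, 6.08 and 6.07 in vehicle, 6.25 to 7.37 in vitiligo and 4.59 to 5.68 in no_induction, so none of the 3 groups overlapped. The median log2 fold change was 0.77 against vehicle, 1.56 against no_induction and 0.76 between the controls. Against no_induction 24 of the 28 rose (5.27% of all genes did). Against vehicle 22 and between the controls 20 had an unadjusted p under 0.05, all in the higher direction and none called by edgeR in either, where 3.61% and 2.22% of all genes were higher. Without vehicle 001 the median against vehicle was 0.83, with 17 higher before adjustment, where 8.61% of all genes were higher.

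Lep, the hormone leptin that reports fat stores to the brain, was at 16, 34.9 and 16.6 CPM in vehicle and rose from 0.579 to 10.7 CPM in no_induction to a range of 28.4 to 168 CPM in vitiligo (median 49.6). The log2 fold change was 1.78 ± 0.62 against vehicle and 2.50 ± 0.52 between the controls, and limma-voom called the latter with an adjusted p of 0.0157 (0.565 by edgeR). Adipoq, the fat hormone adiponectin, was at 133, 151 and 124 CPM in vehicle and at 148 to 746 CPM in vitiligo, a log2 fold change of 1.47 ± 0.45. Plin1, the coat protein of fat droplets that gates fat breakdown, was at 108, 110 and 121 CPM in vehicle, at 154 to 337 CPM in vitiligo (median 205) and at 20.4 to 95 CPM in no_induction. It differed by 1.00 ± 0.24 (95% interval 0.48 to 1.52) from vehicle and the controls differed by 1.04 (95% interval 0.31 to 1.77). Nnat, an imprinted gene of the adipocyte list, was at 2.6, 3.2 and 2.64 CPM in vehicle, while vitiligo ran from 2.41 to 51.7 CPM and no_induction reached 1.43 CPM at most.

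**Figure D3:**
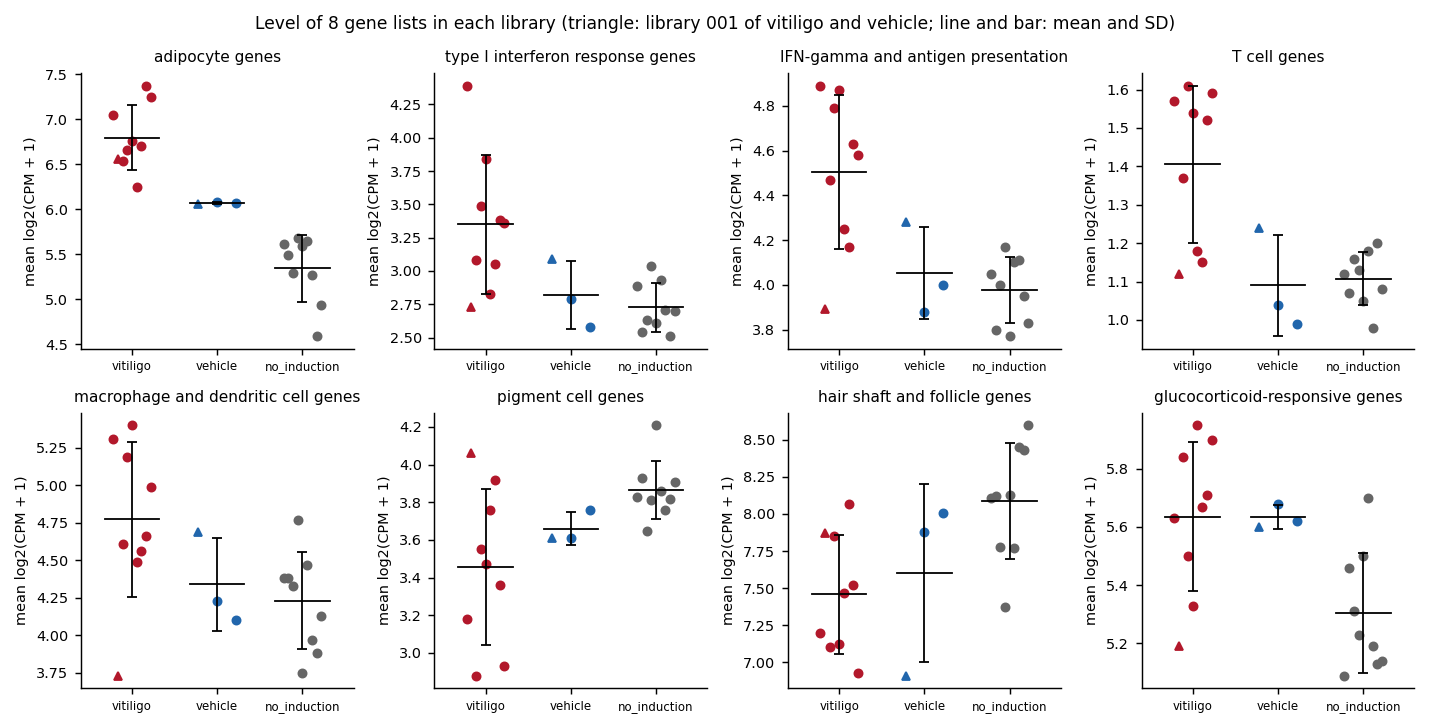
Level of 8 gene lists, as the mean log2(CPM + 1) of their members, in each vitiligo, vehicle and no_induction library, with the mean and SD of each group as a line and bar and library 001 of vitiligo and vehicle as a triangle. Adipocyte levels form 3 separate steps, with vehicle at 6.06 to 6.08 between the other groups, and glucocorticoid-responsive levels in vehicle (5.6 to 5.68) fall inside the vitiligo range of 5.19 to 5.95.

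The 15 genes called by DESeq2 against vehicle were chosen for naming after their values were seen. All 15 were also called against no_induction in the same direction, where 7.74% of all genes were called. In 14 of them vitiligo and vehicle did not overlap, as for 0.613% (higher) and 0.352% (lower) of all genes. The 15 were picked for their difference between these same libraries, and both comparisons share the vitiligo libraries. Neither count is therefore an independent check of the DESeq2 calls. In edgeR and under the other settings tried, the adjusted p of the 14 genes with a settled name ran from 0.0184 to 1.0. The value of 0.0184 was for Fads2b when the 3 groups were fitted together, and was the single call outside DESeq2. The other genes were Slc7a10, Slc1a5, Slc36a2, Ces1d, Plin1, Ppp1r1a, Ephx2, Mfng, Apol6, Cd207, Retnla, Mup18, Mup9 and the provisional A530016L24Rik, all higher in vitiligo.

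Slc7a10, an amino acid transporter known from the surface of white fat cells, was at 1.86, 5.76 and 3.55 CPM in vehicle and at 8.64 to 26.7 CPM in vitiligo (median 12.2). Its log2 fold change was 2.15 ± 0.44 in edgeR (unadjusted p = 0.000221) and 2.12 in DESeq2, whose adjusted p was 0.000557. The range of adjusted p over the other settings was 0.0825 to 1.0. Slc36a2, a proton-coupled amino acid transporter also found on fat cells, was at 10.6, 11.8 and 14.7 CPM in vehicle and at 17.0 to 30.7 CPM in vitiligo. Slc1a5, the glutamine transporter, was at 78.0, 74.1 and 69.5 CPM in vehicle and at 95.3 CPM or more in vitiligo (median 171), a log2 fold change of 1.07 ± 0.23. Ces1d, a carboxylesterase that acts on stored fat, was at 55.9, 54.0 and 51.9 CPM in vehicle, at 67.2 CPM or more in vitiligo (median 87.3) and at 50.5 CPM or less in no_induction. It had the second smallest edgeR p, 6.89e-05 before and 0.489 after adjustment.

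Fads2b, a relative of the fatty acid desaturases, was the member of the 15 that was lower in vitiligo. It was at 80.5, 102 and 84.5 CPM in vehicle, at 51.7 to 65.0 CPM in vitiligo (median 63) and at 73.5 to 92.2 CPM in no_induction. The log2 fold change was -0.55 ± 0.09 (95% interval -0.75 to -0.35) against vehicle and -0.47 against no_induction, and the controls differed by 0.07 (95% interval -0.13 to 0.28). Mup18, a major urinary protein that carries pheromones, was at 9.48, 3.71 and 4.63 CPM in vehicle and at 11 to 416 CPM in vitiligo, yet reached 51.3 CPM in no_induction. Mup9 was at 0.139, 0 and 0 CPM in vehicle and at 0.242 to 13.1 CPM in vitiligo. Major urinary protein genes are near-identical copies, and reads may have been split between them.

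**Figure D4:**
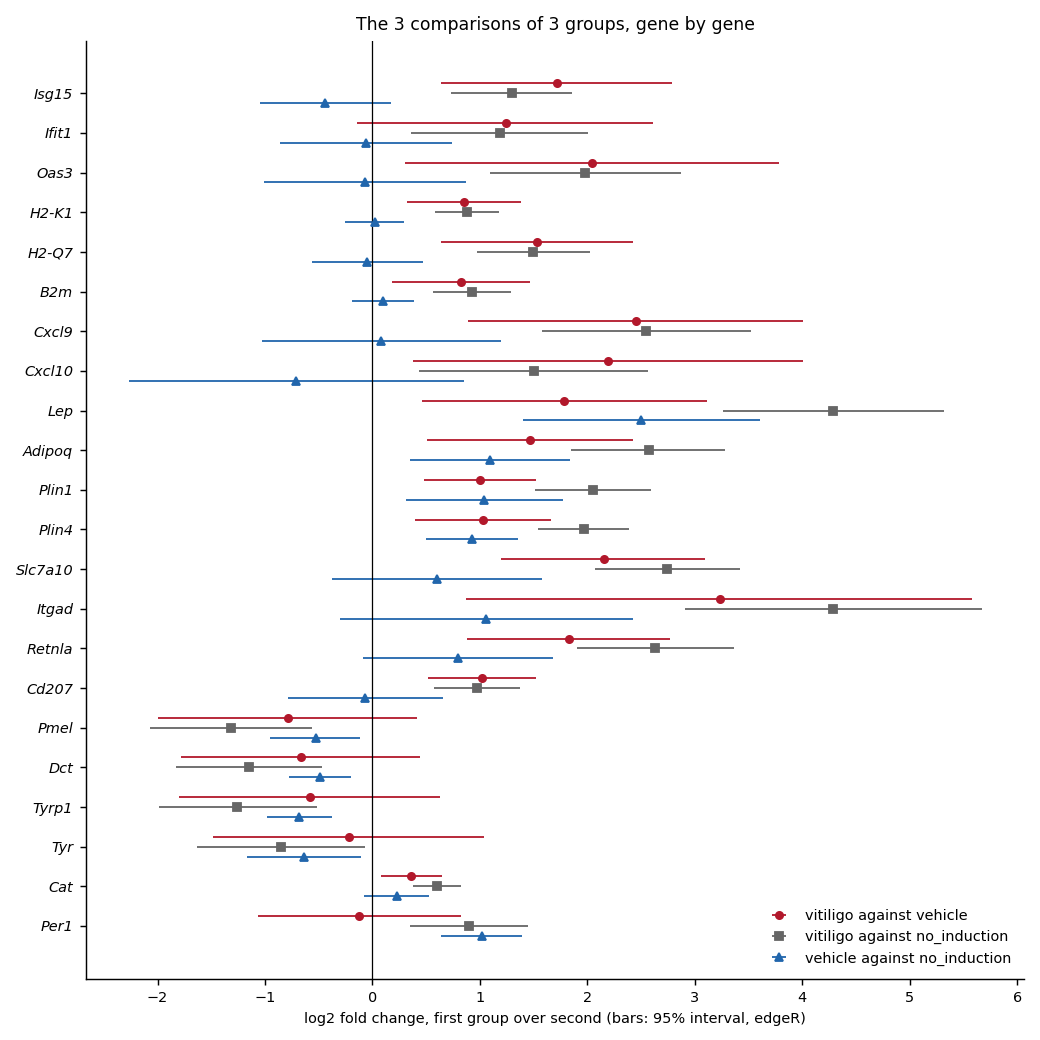
Log2 fold change with its 95% interval (edgeR) of genes in vitiligo against vehicle (circles), vitiligo against no_induction (squares) and vehicle against no_induction (triangles). For H2-K1, H2-Q7, B2m, Cxcl9 and Cd207 circles and squares lie close together with triangles near 0, for Plin1 the triangle (1.04) lies about as far from 0 as the circle (1.00), for Lep the triangle (2.50) lies farther out than the circle (1.78), and for Per1 the circle is at -0.13 while the triangle is at 1.02.

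Pigment genes varied widely among vitiligo libraries and none was called against vehicle. Of 22 tested, 0 had an unadjusted p under 0.05, and the median log2 fold change was -0.01 against vehicle (-0.08 without vehicle 001), -0.15 against no_induction, where 5 of 21 fell (2.47% of all genes did), and -0.24 between the controls. Pmel, which builds the fibrils on which melanin is laid down, was at 19.3, 15.6 and 22.5 CPM in vehicle and in vitiligo ran from 2.54 to 25.9 CPM (median 6.58). In 6 vitiligo libraries it lay below every vehicle library, in 1 above, and the log2 fold change was -0.79 ± 0.56 (95% interval -2.0 to 0.41). Against no_induction, where levels ran from 17.0 to 37.2 CPM, Pmel fell by 1.32 on the log2 scale, with an edgeR adjusted p of 0.0301.

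Dct and Tyrp1, enzymes late in melanin synthesis, behaved in the same manner. Dct was at 21.3, 18.2 and 22.7 CPM in vehicle and at 3.21 to 26.6 CPM in vitiligo, and Tyrp1 at 16.9, 15.2 and 18 CPM in vehicle and at 2.02 to 22.3 CPM in vitiligo. For both, 6 of 9 vitiligo libraries lay below and 3 above all vehicle libraries. The vehicle group was itself below no_induction for part of the list. Of 23 pigment genes tested between the controls, 7 were lower in vehicle at an unadjusted p under 0.05 and 0 higher. Over all genes 1.38% were lower, and edgeR called none. All 3 vehicle libraries lay under all 9 no_induction libraries for Dct, Tyrp1 and Tyr, as for 0.261% of all genes. Tyr is the enzyme that starts melanin synthesis. Between the controls Tyrp1 had a log2 fold change of -0.68 (95% interval -0.98 to -0.38), called by DESeq2 with an adjusted p of 0.0267 (0.565 by edgeR). Tyr differed from vehicle by -0.22 ± 0.59 and Mlana, a melanosome protein and T cell target, by 0.04 ± 0.68. Mitf, the master regulator of the lineage, was at 21.9, 33.2 and 30.8 CPM in vehicle and at 24.1 to 35.3 CPM in vitiligo, with a log2 fold change of 0.03 (95% interval -0.32 to 0.37). Vitiligo 001, which stood apart from its group, was the highest vitiligo library for Tyr (19.7 CPM) and Mlana (12.6 CPM), and without it the value was -0.57 for Tyr, -0.42 for Mlana and -0.98 for Pmel.

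Melanocyte promoters are known for E-boxes read by Mitf, and these windows are shown because Tyrp1, Tyr and Dct had their lowest levels in the same 2 vitiligo libraries. The core CATGTG, on either strand, was found in 8 of 24 pigment gene promoters that matched by symbol (33.3%) and in 4650 of 32851 promoters in all (14.2%). No window with these letters ahead of the start was found for Pmel. Windows are printed as above for Tyrp1 (chr4:80834147-80834192, plus strand), Tyr (chr7:87493513-87493553, minus strand) and Dct (chr14:118052371-118052416, minus strand), with the core in capitals.
Tyrp1: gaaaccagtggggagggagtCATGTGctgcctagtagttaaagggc
Tyr: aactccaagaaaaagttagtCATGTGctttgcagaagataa
Dct: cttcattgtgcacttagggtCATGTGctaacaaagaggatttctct

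No gene of the oxidative stress lists was called against vehicle. Their counts before adjustment rose without vehicle 001, as did the share of all genes. Of 38 antioxidant enzymes 3 were higher at an unadjusted p under 0.05 (median 0.06), of 39 NRF2 target genes 1 (median 0.13) and of 31 genes that produce reactive oxygen 1 (median 0.25), against 3.61% of all genes. Without vehicle 001 these counts became 7 of 38 (median 0.24), 10 of 39 (median 0.15) and 6 of 32 (median 0.48), against 8.61% of all genes. Cat, the peroxisomal enzyme that splits hydrogen peroxide, was at 202, 244 and 230 CPM in vehicle and at 232 to 348 CPM in vitiligo (median 298), and 7 of 9 vitiligo libraries lay above the vehicle range. Its log2 fold change was 0.36 ± 0.14 against vehicle and 0.60 against no_induction, where it was called with an edgeR adjusted p of 0.00115. The mitochondrial peroxidase Prdx3 had a value of 0.33 ± 0.15. Sod2, Hmox1 and Nqo1, responders to oxidative stress, had values of 0.15, -0.10 and 0.09, and for Nqo1 that value became 0.46 without vehicle 001. Among 37 p38 stress kinase genes 0 were higher and 2 lower at an unadjusted p under 0.05, where 2.7% of all genes were lower. Without vehicle 001 1 was higher and 4 were lower, where 6.72% of all genes were lower. Mapk13, the p38 kinase of epithelia, was at 155, 126 and 123 CPM in vehicle and at 83.9 to 124 CPM in vitiligo, and its value of -0.32 became -0.20 without vehicle 001. Mapk14, the common p38 kinase, had a value of -0.15 (95% interval -0.36 to 0.06).

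Barrier genes of the epidermis were the list with most members lower before adjustment against vehicle, of 33 lists with members tested. Of 39, 6 were lower and 0 higher at an unadjusted p under 0.05 (2.7% of all genes were lower), with a median of -0.24, and none was called. Without vehicle 001 12 were lower, where 6.72% of all genes were, with a median of -0.19. Krt10, the main keratin of the upper epidermis, was at 16482, 12256 and 11510 CPM in vehicle and at 6091 to 13415 CPM in vitiligo (median 8380). Its log2 fold change was -0.61 ± 0.22 against vehicle but -0.24 against no_induction, and between the controls 0.36. Hrnr, a giant protein of the cornified layer, had values of -0.67 ± 0.20 against vehicle, 0.00 against no_induction and 0.66 between the controls. Cers3, which makes the ceramides of the skin barrier, was at 56.9, 82.3 and 73.4 CPM in vehicle and at 47.3 to 59.6 CPM in vitiligo. Its values were -0.39 ± 0.11 against vehicle and -0.25 against no_induction, where it fell with an edgeR adjusted p of 0.0261.

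Hair genes gave different values with and without vehicle 001. Of 45 hair shaft and follicle genes 10 fell against no_induction (2.47% of all genes did), with a median of -0.41. Against vehicle 2 were lower at an unadjusted p under 0.05 (2.7% of all genes were), with a median of -0.06. The level of the list was 6.91 in vehicle 001 and 7.88 and 8.01 in vehicle 002 and 003, and ran from 6.93 to 8.07 in vitiligo. Without vehicle 001 the median was -0.30 and 9 genes were lower before adjustment, where 6.72% of all genes were. Krtap4-13, a keratin-associated protein that embeds hair keratins, was at 4.74, 19.5 and 15.0 CPM in vehicle and at 2.48 to 12.1 CPM in vitiligo. Keratin-associated protein genes are near-identical copies, so this value is uncertain.

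Levels of glucocorticoid-responsive genes overlapped among the 3 groups, at 5.6, 5.68 and 5.62 in vehicle, 5.19 to 5.95 in vitiligo and 5.09 to 5.7 in no_induction. Of 16 tested, 5 rose against no_induction (median 0.44), where 5.27% of all genes did. Against vehicle 0 had an unadjusted p under 0.05 (median -0.05). Between the controls 5 were higher before adjustment (2.22% of all genes were) and none was called by edgeR (median 0.34). Per1, a clock gene that glucocorticoids also induce, was at 47, 96.2 and 94.6 CPM in vehicle, at 24.6 to 141 CPM in vitiligo (median 50.7) and at 30.2 to 45.4 CPM in no_induction. All 3 vehicle libraries lay above all no_induction libraries, as for 0.43% of all genes. For Per1 the log2 fold change was -0.13 ± 0.44 against vehicle, 0.90 against no_induction and 1.02 ± 0.17 between the controls, where DESeq2 gave an adjusted p of 0.00163 and edgeR 0.25. Without vehicle 001 edgeR called Per1 and Arrdc3 between the controls, with adjusted p of 0.00167 and 0.0275 and log2 fold changes of 1.29 and 0.73. Without the libraries that held Y-linked transcripts, a setting chosen after seeing the data, it called Per1, Errfi1, Tsc22d3, Depp1 and Arrdc3. All of these were higher in vehicle than in no_induction. Klf9, another glucocorticoid target, had values of 0.28 against vehicle, 0.65 against no_induction and 0.36 between the controls. The hour of sampling and the handling of the mice are not given in the labels.

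Immediate early genes, which respond within minutes to handling and stress, were read as a list together with heat shock genes. None of 29 members was called against vehicle, and 4 were higher at an unadjusted p under 0.05 (median 0.18), where 3.61% of all genes were. Without vehicle 001 2 were higher and 1 lower, where 8.61% of all genes were higher. Fos was at 18.4, 16 and 13.6 CPM in vehicle and spread from 17.3 to 263 CPM in vitiligo. The 4 highest vitiligo libraries stood at 263, 217, 105 and 44.6 CPM, and the other 5 between 17.3 and 32.9 CPM.

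Further values against vehicle also turned or moved by over 1.5 times without vehicle 001, and those given here are examples. C7, a late complement component, was at 220 CPM in vehicle 001 and at 1.41 and 2.40 CPM in vehicle 002 and 003, while vitiligo ran from 0.245 to 6.13 CPM. Its log2 fold change of -4.35 ± 1.01 became 0.96 without vehicle 001. No_induction 011 and 012, which also held Y-linked transcripts, were at 103 and 114 CPM for C7, and no other library of that group exceeded 18.9 CPM. The call of C7 against no_induction (-2.95, edgeR adjusted p = 0.0423) was lost without those libraries (-0.70, adjusted p = 0.44). Il1b, an inflammatory cytokine, was at 15.7 CPM in vehicle 001 and at 1.41 and 0.541 CPM in the other vehicle libraries, and its value turned from -1.54 to 1.09 without vehicle 001. Hsd17b7, an enzyme of cholesterol synthesis, was lower in all 9 vitiligo libraries (68.2 to 112 CPM) than in any vehicle library (204, 117 and 114 CPM), and its value moved from -0.73 to -0.38 without vehicle 001, with an unadjusted edgeR p of 0.0204. It reached 215 and 187 CPM in no_induction 011 and 012. Endothelial genes had 0 of 18 members under an unadjusted p of 0.05 (median 0.11). Without vehicle 001 it was 14 of 18, all higher in vitiligo (median 0.57), where 8.61% of all genes were higher. Nuclear oxidative phosphorylation genes went from 4 to 33 of 73 in the same way, and their median from 0.16 to 0.34. Medians turned from -0.22 to 0.94 for neutrophil genes and from -0.17 to 0.49 for stress keratin and antimicrobial genes.

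Markers of other tissues were low. The level of the gastrointestinal and pancreatic list ran from 0.19 to 1.47 in vitiligo, with the highest values in vitiligo 260 (1.47) and 000 (1.1), and was 0.64, 0.19 and 0.18 in vehicle. Skeletal muscle genes ran from 0.72 to 1.47 in vitiligo and were at 0.80, 0.68 and 0.75 in vehicle. Their part in the results above was not tested. Hoxb13, a gene of the tail end of the body axis, was at 8.83, 5.25 and 4.09 CPM in vehicle and at 0.307 to 9.34 CPM in vitiligo, and it was under 1 CPM in vitiligo 000 and 047. Whether skin came from the same stretch of tail in all libraries is not given in the labels.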

How the data were processed

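RNA of tail skin was prepared with Trizol and oligo(dT) selection, per the labels' protocols. Tools listed in the submitters' processing notes, with no roles, are HISAT2, Bowtie2 2.2.8, DESeq2 and StringTie 1.3.1. The genome build, counting program and strand setting are not given in the sources used here, so antisense and overlapping genes cannot be told apart. The authors deposited 1 table of expected counts per gene for 38 libraries. Of 19220 rows, 1 was incomplete and 1 had no symbol, and 19218 genes were used. In 3107 (16.2%) a deposited count was not whole, and rounding changed a total by at most 22.1.

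Groups were fitted in pairs with edgeR 4.0.16 (R 4.3.3; TMM, default filter, robust quasi-likelihood F test, two-sided), called at a Benjamini-Hochberg adjusted p under 0.05. SE were derived from F. CPM use TMM-scaled totals of the 21 libraries. Alternatives were RLE factors, other filters, a fold of 2, DESeq2 1.42.0, limma-voom (limma 3.58.1), larger fits, a replicate block and leaving out libraries. The fits were tested on simulated counts. Replicates differed beyond sampling noise in every pair (chi-square over its degrees of freedom at least 7.33), and each counted once.

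The 34 gene lists, the members and the groups compared were chosen with earlier results of these data known. Genes named are those with the smallest p against vehicle in each list (4 at most), the 3 smallest p per direction between the controls, and a set of genes of vitiligo biology, of which 1 is not reported here. No gene was called, so the parts of the rule on called genes gave none. Genes called by DESeq2, genes called between the controls with libraries left out, Hsd17b7, and the list members Tap1 and Psmb8 were named after their values were seen. Promoters come from RefSeq (GRCm38.p6), matched by symbol.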

Additional observations from a re-analysis of the deposited data

Results flagged for a closer look

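In the 9 vitiligo libraries, 203 genes and list levels were examined for a single library far from the rest, by the gap to its nearest neighbour over the range (Dixon's critical value 0.493). Chance gives about 1 flag in 20, and 12 were found. Vitiligo 001 was the library in 7 of them. It was lowest for the nerve gene Cnp (16.8 CPM), the fibril collagen Col14a1 (50.3 CPM), the elastin crosslinker Loxl1 (27.9 CPM), the NRF2 target list (level 5.74) and the collagen and dermal matrix list (7.25). It was highest for the mitochondrial mt-Nd6 (491 CPM) and the cell cycle list (5.26). Vitiligo 260 was highest for the gut apolipoprotein Apoa4 (11.1 CPM) and for the glial S100b (23.6 CPM). Vitiligo 000 was highest for the skeletal muscle list (1.47), vitiligo 062 for the kinase Mapkapk3 (84.1 CPM), and vitiligo 039 was lowest for Mapk13 (83.9 CPM).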

How the results depend on the processing

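The count of genes called between vitiligo and vehicle was 0 with a fold of 2, without the filter on low counts, with a stricter one, with RLE factors, limma-voom, all 38 libraries in one fit and with each library left out. It was 15 with DESeq2 and 1 with the 3 groups in one fit, and the count called in the same direction against both controls was likewise 15 and 1. Chosen after seeing the data, leaving out vehicle 001 and vitiligo 001 together gave 0 calls, with a smallest adjusted p of 0.0567. Against no_induction, 1070 calls became 253 with a fold of 2, 1744 with DESeq2, 5894 with limma-voom and 1683 with all 38 libraries, and ran from 688 (without no_induction 023) to 2571 (without vitiligo 001) with single libraries left out. Between the controls 0 calls became 7 with DESeq2, 3 with limma-voom, 5 without the libraries that held Y-linked transcripts (a setting chosen after seeing the data), and 0 to 2 with single libraries left out. With the replicate block on the numbers 001 to 003 it gave 6 calls, 4 of them Y-linked genes. Same-numbered libraries did not deviate together (correlations -0.11, -0.14 and 0.08), so the numbers were not taken to pair them. No paired analysis was possible for vitiligo against vehicle because these groups share 1 number. Of 76 named genes with an unadjusted p under 0.05 against vehicle, C7 and Il1b changed sign under at least 1 setting. With 3 vehicle libraries, the median SE over all genes was 0.175, against 0.114 with 9 no_induction libraries.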
